A study of Mus musculus with 7 samples.

Results

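Long noncoding RNA genes whose annotated starts lay far from any protein-coding start were examined for open chromatin in HPC7 cells. A start was included when its GENCODE M21 gene was typed lincRNA or antisense and its 5′ end lay more than 5 kb from every protein-coding transcript start, and each was given a window of 1 kb on either side. The rule left 6806 of 8813 lincRNA and antisense starts, of which 5196 were lincRNA and 1610 antisense, and these are called isolated lncRNA starts. The rule itself uses the annotation alone. HPC7 is a mouse blood progenitor line that was grown from embryonic stem cells carrying the LIM-homeobox gene Lhx2 and that depends on stem cell factor. The 7 libraries were ATAC-seq of HPC7 cells from separate cultures by the study's account. The labels give them 1 description and no treatment, although the peak names begin with an unexplained VD in 3 libraries and EtOH in the other 4, so every comparison below is between sets of regions and none is between treatments. All 7 come from 1 cell line, and p-values therefore measure the spread between these cultures only.

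ATAC-seq cuts DNA with a transposase that reaches nucleosome-poor sequence, and a peak marks a place with more cuts than its surroundings. Transcription starts of active genes are usually open, most steadily where the start lies in a CpG island, a stretch that kept its CpG dinucleotides. Long noncoding RNAs are transcribed and often spliced but encode no known protein. The best known of them act at chromatin, in nuclear bodies or as precursors of small RNAs, while many annotated ones lie on enhancers or have no described role. The distance rule keeps every coding start outside these windows. A wide peak can still reach in from nearby, and how often that happened was not tested.

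The peak lists held between 84593 peaks in HPC7-6 and 132852 in HPC7-1. These lists hold no read counts, and the read totals of the study were not used here, so the number of peaks is the measure of library size in what follows. Of 12 genes whose promoters are expected open in blood progenitors, 11 had a peak at the start in all 7 libraries (Fli1, Gfi1b, Kit, Lhx2, Lmo2, Lyl1, Myb, Ptprc, Runx1, Spi1 and Tal1). The remaining gene, Gata2, had none at its annotated 5′ end in any library. None of 12 promoters of other tissues had a peak in any library.

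Sequences of 8 starts are given because they span what the lists contained. The first 5 are promoters of isolated lncRNA starts with a peak in all 7 libraries and a summit, the position of highest signal, inside the printed stretch. The sixth is a CpG-rich start with no peak in any library. The last 2 are stretches of 75 bases on either side of the strongest summit at CpG-poor starts. Promoters run from 250 bases before the start to 50 bases from it, 5′ to 3′ on the strand of the gene, and all were read from the RefSeq copy of GRCm38, whose coordinates are those of mm10. Capitals mark only the matches listed here for each sequence, on either strand, and other motifs searched at the summits, such as TATAAAA, are not marked. They are CCGGAAG of ETS factors and GGGCGGG of SP and KLF factors in Gm2885, GGGCGGG in 6720427I07Rik, Jpx and Mir124a-1hg, CCGGAAG in Snhg6, CCAATCA of NF-Y in Kcnq1ot1, GAGGAAGT of PU.1 and the E-box CAGCTG in Mirt1, and TGAGTCA of AP-1 in Gm33524. In order they lie at chr17:6827941-6828240 (minus strand), chr13:48546451-48546750 (minus), chr1:9944069-9944368 (minus), chr7:143296500-143296799 (minus), chrX:103493306-103493605 (plus), chr14:64587081-64587380 (plus), chr19:53464770-53464920 (minus) and chr14:70057066-70057216 (minus).
Gm2885: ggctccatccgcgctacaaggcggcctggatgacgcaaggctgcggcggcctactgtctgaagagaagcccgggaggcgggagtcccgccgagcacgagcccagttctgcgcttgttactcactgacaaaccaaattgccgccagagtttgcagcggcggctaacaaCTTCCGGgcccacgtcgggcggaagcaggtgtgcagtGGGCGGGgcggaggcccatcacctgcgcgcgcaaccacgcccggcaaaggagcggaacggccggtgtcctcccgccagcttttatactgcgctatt
6720427I07Rik: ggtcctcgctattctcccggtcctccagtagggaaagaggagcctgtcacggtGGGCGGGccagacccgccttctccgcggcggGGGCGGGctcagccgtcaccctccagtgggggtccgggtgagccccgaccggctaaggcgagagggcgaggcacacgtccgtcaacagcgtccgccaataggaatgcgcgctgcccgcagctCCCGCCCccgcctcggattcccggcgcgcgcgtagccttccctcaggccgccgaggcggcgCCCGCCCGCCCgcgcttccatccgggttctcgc
Snhg6: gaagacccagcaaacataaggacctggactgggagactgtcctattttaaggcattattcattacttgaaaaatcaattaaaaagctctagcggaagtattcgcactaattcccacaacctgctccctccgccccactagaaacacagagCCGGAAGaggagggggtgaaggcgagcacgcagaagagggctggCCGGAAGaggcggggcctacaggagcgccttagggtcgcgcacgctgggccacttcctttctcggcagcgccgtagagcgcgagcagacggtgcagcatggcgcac
Kcnq1ot1: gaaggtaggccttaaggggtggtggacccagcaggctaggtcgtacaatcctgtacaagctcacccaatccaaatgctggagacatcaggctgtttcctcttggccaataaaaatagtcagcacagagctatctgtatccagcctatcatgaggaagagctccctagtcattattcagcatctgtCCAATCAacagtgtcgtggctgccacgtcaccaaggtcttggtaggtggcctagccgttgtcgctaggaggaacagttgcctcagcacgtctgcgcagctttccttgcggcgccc
Jpx: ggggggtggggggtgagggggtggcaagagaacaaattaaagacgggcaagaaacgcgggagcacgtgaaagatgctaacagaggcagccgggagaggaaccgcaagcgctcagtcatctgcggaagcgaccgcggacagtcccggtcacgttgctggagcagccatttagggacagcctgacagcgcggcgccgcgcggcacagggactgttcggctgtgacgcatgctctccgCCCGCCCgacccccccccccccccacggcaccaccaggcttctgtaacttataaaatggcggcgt
Mir124a-1hg: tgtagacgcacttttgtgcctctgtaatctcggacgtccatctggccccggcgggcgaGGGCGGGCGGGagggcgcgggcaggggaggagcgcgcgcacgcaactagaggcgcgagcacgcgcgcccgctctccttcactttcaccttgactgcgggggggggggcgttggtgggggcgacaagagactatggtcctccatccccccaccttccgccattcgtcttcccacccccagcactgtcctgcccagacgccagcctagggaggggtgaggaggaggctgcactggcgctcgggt
Mirt1: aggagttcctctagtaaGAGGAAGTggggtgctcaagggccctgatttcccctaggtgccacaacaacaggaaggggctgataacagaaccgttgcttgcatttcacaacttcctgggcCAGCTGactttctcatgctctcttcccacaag
Gm33524: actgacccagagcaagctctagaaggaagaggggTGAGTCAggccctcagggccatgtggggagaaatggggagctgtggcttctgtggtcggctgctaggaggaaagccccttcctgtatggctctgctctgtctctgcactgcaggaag
The stretches differ in CpG content, counted over 300 bases in the promoters and 151 bases at the summits. The Gm2885 promoter holds 31 CpGs, that of 6720427I07Rik 40, that of Jpx 27 and that of Snhg6 19, while Kcnq1ot1 holds 9. The closed Mir124a-1hg promoter holds 28, within the range of the open ones. The Mirt1 and Gm33524 summit stretches hold 1 each. The 5 matches to GGGCGGG in 6720427I07Rik include a pair that overlaps. A match describes letters only and does not show that a factor was bound.

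Most isolated lncRNA starts had no peak. On average 17.2 ± 2.14% (SD, n = 7 libraries) of the 6806 windows overlapped a peak by at least 1 bp. The share was lowest in HPC7-6 at 14.4% (982 windows), had HPC7-7 as its median library at 17.2%, and was highest in HPC7-1 at 20.7% (1412 windows). These extremes were also the libraries with the fewest and the most peaks, and values from lists cut to equal length are given in the closing section. Protein-coding starts, 21938 windows of the same size, had a peak in 54.0 ± 1.14%. The difference of −36.8 percentage points was negative in each of the 7 libraries (two-sided exact sign-flip permutation test over libraries, p = 0.0156, the smallest that 7 libraries allow, and 0.0156 after Benjamini-Hochberg adjustment over 10 tests). These coding starts include ones close to another coding gene. Against the 17504 coding starts more than 5 kb from every transcript start of other coding genes, the difference was −30.5 percentage points.

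The isolated starts were nevertheless open more often than other sequence that also lay more than 5 kb from coding starts. A tiling of the genome into 2 kb windows more than 5 kb from every protein-coding transcript start gave 1176459 windows, of which 7.03 ± 1.25% had a peak. These windows leave out any that overlapped the window of an isolated start. They may hold starts of other noncoding gene types and were not matched for repeats or base composition. The isolated lncRNA starts stood 10.1 percentage points above them, in 7 of 7 libraries (exact sign-flip permutation, p = 0.0156, adjusted p = 0.0156). The 2007 lincRNA and antisense starts within 5 kb of a coding start, which the rule left out, had a peak in 55.5 ± 1.83%. That is 38.3 percentage points above the isolated starts in a test of the same kind, in 7 of 7 libraries (exact permutation p = 0.0156, adjusted p = 0.0156), and close to the coding starts themselves. The windows of these nearby starts can contain the coding start or its peak. Peaks of the 2 kinds of gene were not told apart there, so this share is not one of lncRNA starts alone.

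**Figure D1:**
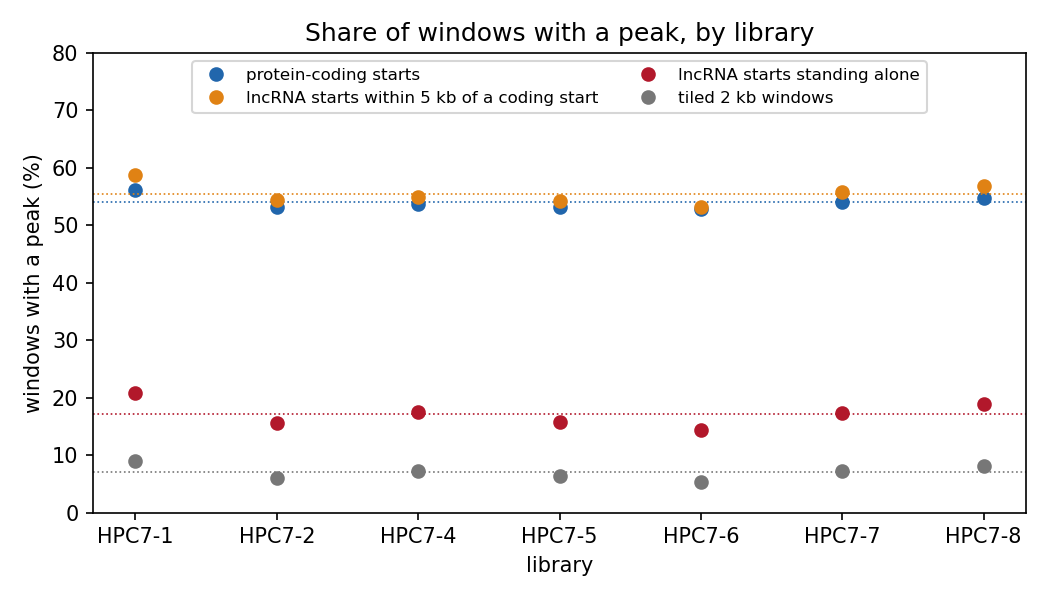
Share of windows with a peak (%) in each of the 7 HPC7 libraries for isolated lncRNA starts, protein-coding starts, lncRNA starts within 5 kb of a coding start and tiled 2 kb windows; dotted lines are means over libraries. The isolated starts lie between 14.4% and 20.7%, above the tiled windows and far below both other sets in every library.

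Openness at these starts was mostly shared by all libraries or absent from all. A peak was present in all 7 libraries at 902 starts (13.3%), beside 51.6% of protein-coding starts and 4.67% of tiled windows. The count was 580 with windows of 250 bp on either side, and 569 where starts had to lie more than 20 kb from coding starts. No library had a peak at 5315 starts (78.1%). The other 589 starts had a peak in 1 to 6 libraries, 152 of them in a single one. Fold values and peaks come from whole cultures, so a site open in few cells cannot be told apart from one weakly open in many. Of the starts with any peak, 60.5% had it in all 7, between the 46.7% of tiled windows and the 90.5% of coding starts. HPC7-1, with the longest list, supplied 99 of the 152 starts open in 1 library only, HPC7-8 supplied 23 and HPC7-5 supplied 1.

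**Figure D2:**
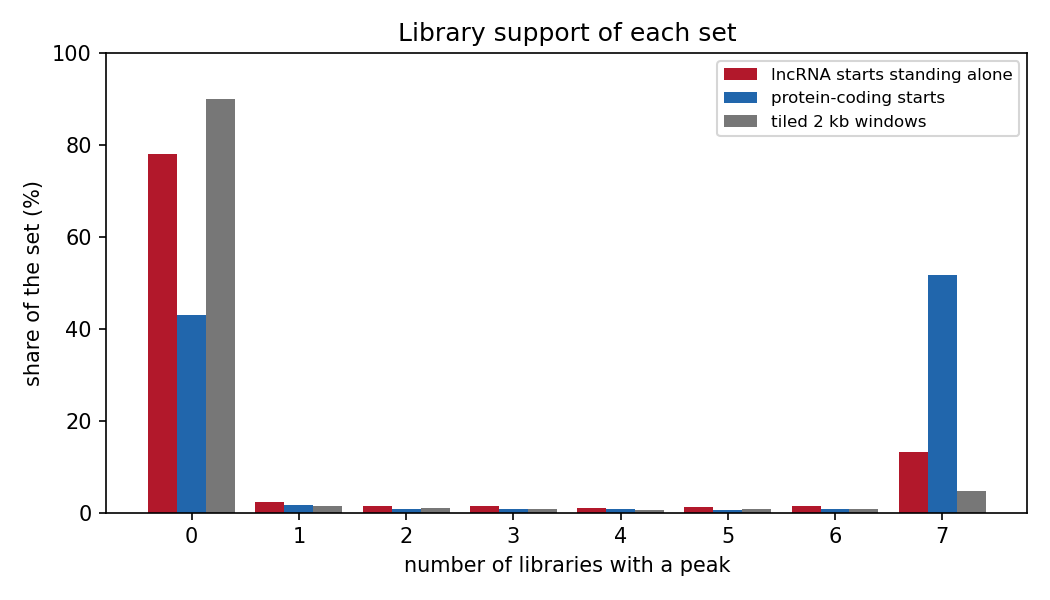
Share of each set (%) against how many libraries had a peak there, from 0 to 7, for isolated lncRNA starts, protein-coding starts and tiled 2 kb windows. Isolated lncRNA starts show 78.1% at 0 and 13.3% at 7, and coding starts 51.6% at 7.

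Single-library calls with a high value were edges of common peaks. The 3 strongest, all in HPC7-1, were at the antisense gene Gm43915 with a fold enrichment of 129, the lincRNA gene Gm48898 with 75.2 and the antisense gene Gm15555 with 66.3. Fold enrichment is the peak caller's ratio of signal at the summit to background. The summits lay 1965 bp upstream, 1951 bp upstream and 1718 bp downstream of the starts, outside the windows. In each of the other libraries a peak stood at the same place, with fold enrichments of 78.7 to 131 beside Gm43915, 38.0 to 77.4 beside Gm48898 and 59.3 to 104 beside Gm15555. At Gm43915 those peaks ended 1011 to 1045 bp from the start, where the HPC7-1 peak ended at 964 bp. These 3 starts therefore differed between libraries in where a peak's edge fell. The median fold enrichment of the 99 starts open in HPC7-1 only was 2.62.

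The peaks at isolated lncRNA starts were weaker than those at coding starts. Where a peak was present, its median fold enrichment was 10.6 ± 1.19, against 76.8 ± 13.0 at coding starts and 6.91 ± 0.726 in tiled windows. The difference of medians between isolated and coding starts was −0.857 on the log10 scale, in 7 of 7 libraries (exact sign-flip permutation, p = 0.0156, adjusted p = 0.0156). Expressed as a percentile within each library's own list, the median was 65.7 at isolated starts and 93.1 at coding starts. Among the 902 starts open in all 7 libraries, the mean fold enrichment over libraries had a median of 16.4 and quartiles of 7.89 and 41.4, while the 11327 coding starts open in all 7 had a median of 80.1. The lncRNA distribution had a long upper part, with 106 of the 902 (11.8%) above that coding median and 78 (8.65%) above a fold enrichment of 100. Of tiled windows open in all 7, 3.95% were above the coding median and 2.48% above 100. Of the coding starts, 37.0% were above 100. Between libraries, the median coefficient of variation of fold enrichment was 21.9% at these lncRNA starts and 20.2% at coding starts.

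CpG-rich starts were open more often than CpG-poor ones. A start was called CpG-rich when the 250 bases on either side had a GC content of at least 50% and an observed-to-expected CpG ratio of at least 0.6. Only 228 of the 6806 isolated lncRNA starts met this, against 10433 of the 21938 coding starts. CpG-rich isolated starts had a peak in 48.4 ± 2.80% and CpG-poor ones in 16.1 ± 2.12%. The difference was 32.3 percentage points, in 7 of 7 libraries (exact sign-flip permutation, p = 0.0156, adjusted p = 0.0156). In the CpG-rich set 99 of 228 starts were open in all 7 libraries, with a median fold enrichment of 68.2, and in the CpG-poor set 803 of 6578, with a median of 14.4.

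At like CpG class the isolated starts remained less often open than coding starts. CpG-rich coding starts had a peak in 82.3 ± 0.400%, 33.8 percentage points above CpG-rich isolated lncRNA starts. CpG-poor coding starts had one in 28.4 ± 1.84%, 12.3 percentage points above CpG-poor isolated starts. With CpG-rich defined more strictly, by a ratio of at least 0.75 and a GC content of at least 55%, the gaps were 22.0 and 22.1 percentage points. With only coding starts more than 5 kb from other coding genes, isolated minus coding was −29.4 percentage points for CpG-rich and −8.27 for CpG-poor starts. Both differences as first defined held in 7 of 7 libraries (exact sign-flip permutation, p = 0.0156 and adjusted p = 0.0156 for each). The CpG-rich lincRNA starts had a peak in 52.0 ± 2.32% (n = 170 starts) and the CpG-rich antisense starts in 37.9 ± 4.45% (n = 58 starts), a difference that was not tested.

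Antisense starts were open more often than lincRNA starts. Across both CpG classes the share with a peak was 22.9 ± 3.04% for antisense and 15.4 ± 1.88% for lincRNA starts, a difference of −7.55 percentage points for lincRNA minus antisense, in 7 of 7 libraries (exact sign-flip permutation, p = 0.0156, adjusted p = 0.0156). The difference shrank to −4.34 percentage points with windows of 500 bp on either side and to −3.12 with 250 bp. By the annotation's definition antisense genes overlap a coding locus on the other strand, and the 2 types also differed in distance to coding starts. Within 5 to 20 kb of a coding start the shares were 29.3 ± 3.01% for antisense and 27.9 ± 3.62% for lincRNA starts, and beyond 100 kb they were 11.9 ± 2.12% and 8.08 ± 1.25%. Where open in all 7 libraries, lincRNA starts had the higher median fold enrichment, 18.0 against 13.9, a difference that was not tested. Among CpG-poor starts the medians were 14.7 for lincRNA and 13.0 for antisense, and among CpG-rich starts 71.3 and 50.5.

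Distance from coding genes went with openness. Isolated starts 5 to 20 kb from the nearest protein-coding transcript start had a peak in 28.5 ± 3.34%, those at 20 to 100 kb in 19.3 ± 2.39% and those beyond 100 kb in 8.43 ± 1.30%. The nearest class exceeded the farthest by 20.1 percentage points (12.5 with windows of 250 bp on either side) in 7 of 7 libraries (exact sign-flip permutation, p = 0.0156, adjusted p = 0.0156). Tiled windows fell over the same classes, from 14.1 ± 2.48% to 8.74 ± 1.57% and 2.42 ± 0.469%. The isolated starts were above tiles of the same distance class in every library, by 14.4, 10.6 and 6.01 percentage points, and the ratio of the 2 shares was 2.02, 2.21 and 3.48.

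The excess over tiles was found inside and outside coding gene bodies. The 1444 isolated starts inside a coding gene had a peak in 22.3 ± 3.13%, against 10.7 ± 1.99% of tiles inside genes. The 5362 starts outside had one in 15.8 ± 1.89%, against 4.92 ± 0.836% of tiles outside. In each of 6 classes of distance and place, isolated starts were above tiles in 7 of 7 libraries. The widest ratio, 4.15, was beyond 100 kb and outside genes, with 8.14 ± 1.25% of 2348 starts and 1.96 ± 0.390% of 422285 tiles.

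**Figure D3:**
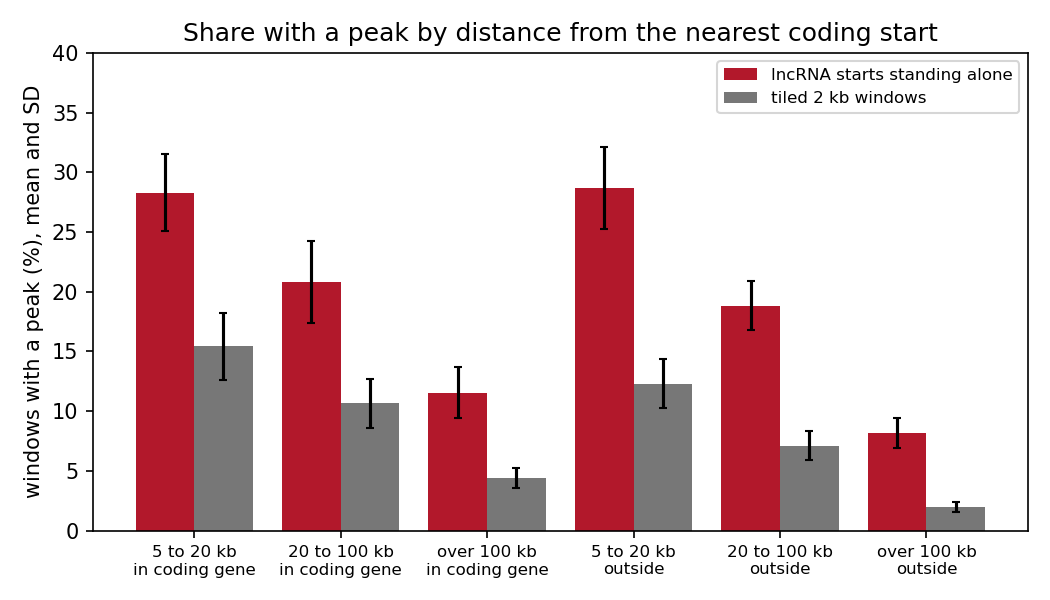
Share with a peak (%, mean and SD over 7 libraries) for isolated lncRNA starts and tiled 2 kb windows, by distance from the nearest protein-coding transcript start and by position inside or outside a coding gene body. Isolated starts are above tiles in all 6 classes, and both fall with distance, to 8.14% and 1.96% beyond 100 kb outside genes.

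Chromosomes differed widely. On chromosome Y, none of 549 isolated starts had a peak in any library, and 546 of these windows were at least 50% repeated, that is, made of 32-base words found more than once in the genome. Only 3 of the 183 coding starts there had a peak in any library. Repeated windows on all chromosomes rarely had a peak, with 20 of 919 open in all 7 libraries, but 546 of these 919 were the chromosome Y windows without a peak. The share with a peak was 3.20 ± 0.366% in these 919 and 20.4 ± 2.53% in the 4822 windows under 10% repeated. Whether reads could be placed in repeated windows was not tested, so a missing peak there does not show closed chromatin. On chromosome 17 the share of isolated starts open in all 7 was 28.7% (76 of 265), the highest of any chromosome. The tiled windows of chromosome 17 were also the most often open, at 8.42%, while its coding starts, at 59.0%, were below those of chromosomes 8, 11 and 12. Chromosome X had 10 of 116 isolated starts open in all 7 (8.62%), beside 32.7% of its coding starts and 1.28% of its tiled windows.

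The strongest value belonged to 3 genes under 1 peak, and it depended on where the summit may lie. The lincRNA genes Gm42418, Gm26917 and AY036118, with starts between positions 39843013 and 39848035 of chromosome 17, shared a peak of about 6 kb at chr17:39842832-39849003 with a fold enrichment from 659 in HPC7-6 through a median of 737 to 1025 in HPC7-5. RefSeq places Rn18s-rs5, an 18S ribosomal RNA pseudogene, at chr17:39846354-39848202 under the same peak. Ribosomal RNA genes exist in many copies that the assembly does not hold in full, so the count of 32-base words (0% repeated at the summit) cannot show this repetition, and its part in the value was not tested. The summit moved between libraries, from 775 to 2775 bp upstream of the Gm42418 start. With the summit required inside the window, Gm26917 and AY036118 had no value in any library and Gm42418, counted as 0 in libraries whose summit lay outside, had a mean of 194, below the mean of 328 at Gm6410. Of the 902 starts, 48 shared their strongest peak with another isolated lncRNA start, and the 902 rested on 878 peaks.

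Next came genes without a described role. The lincRNA gene Gm6410 on chromosome 8 had a fold enrichment of 255.6 to 462 over the 7 libraries with a median of 306, and its summit lay 527 bp upstream of the start. The lincRNA gene Gm5165 on chromosome 17 ranged from 192 to 370 with a median of 273 and a summit 87 bp upstream. Its summit was 39.2% repeated, under the limit of 50% used for naming. These 2 starts stood near the top of the lists, at mean percentiles of 99.96 and 99.89 of all peaks. No start above the repeat limit reached the level of the 12 highest.

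At 7 further starts of the 12 highest values were close to 200. The lincRNA genes 1700096K18Rik on chromosome 5 (161 to 266, median 222), Gm2885 on chromosome 17 (162 to 275, median 200), Gm26901 on chromosome 1 (153 to 261, median 206) and 6720427I07Rik on chromosome 13 (136 to 254.6, median 196) are CpG-rich. So is the antisense gene Gm15287 on chromosome 13 (143 to 244, median 207). Their summits lay within 300 bp of the start, from 274 bp upstream in 1700096K18Rik to 165 bp downstream in Gm15287. The ranges of these genes overlapped across libraries. Within libraries, 1700096K18Rik was above Gm15287 and above 6720427I07Rik in each of the 7.

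The other 2 took their value from a neighbouring peak. For the lincRNA gene Gm44955 (156 to 288, median 242) the summit lay 1684 bp downstream of the start, and for the antisense gene AC125101.1 (130 to 288, median 203) it lay 1719 bp upstream. Neither is CpG-rich. With windows of 500 bp on either side the mean fold enrichment of AC125101.1 fell from 205 to 11.6, and Gm44955 had no peak. Of the antisense genes the third highest was Gm33524 on chromosome 14, 19.8 kb from Egr3, with 115 to 208, a median of 181 and a summit 226 bp into the gene, printed above with its AP-1 letters.

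**Figure D4:**
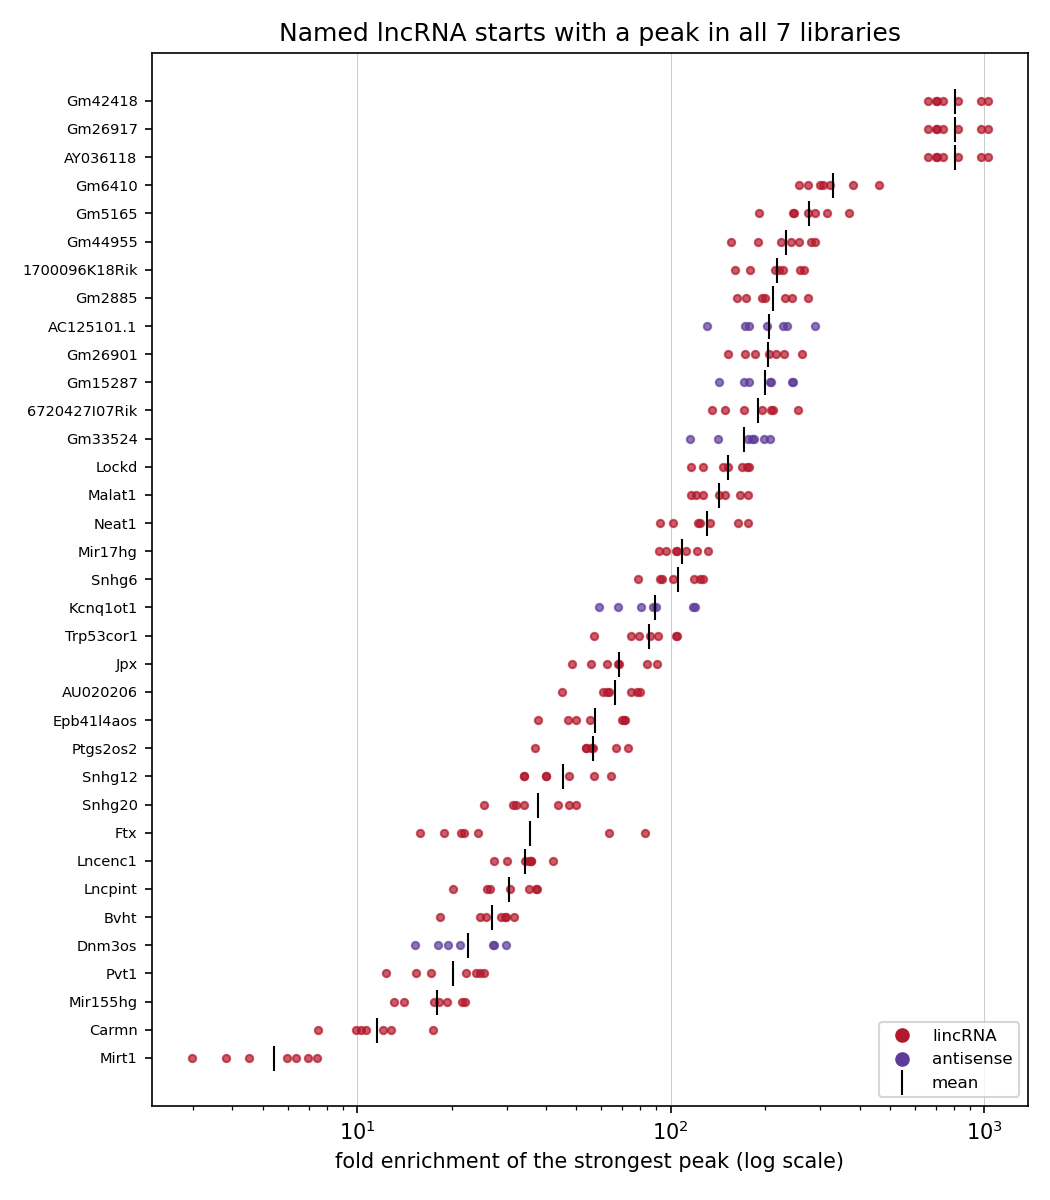
Fold enrichment (log axis) of the strongest peak at named isolated lncRNA starts open in all 7 libraries, 1 point per library, with the mean as a vertical bar and lincRNA and antisense genes in different colours. The 3 genes at the top share 1 peak at 659 to 1025, and Ftx has 2 libraries apart from the other 5.

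Among nuclear RNAs and regulators of X inactivation, 7 of 14 listed isolated starts were open in all 7 libraries, 1 in some and 6 in none. Malat1, an RNA of nuclear speckles, had a fold enrichment of 116 to 177 with a median of 142 and a summit 951 to 1007 bp upstream of the start. Neat1, the scaffold of paraspeckles, had 92.6 to 177 with a median of 124 under a peak 11444 to 15865 bp wide that also covered the start of its neighbour Frmd8os. Its strongest summit lay 137 to 183 bp upstream of the start in 4 libraries and 1244 to 1253 bp upstream in the other 3. Kcnq1ot1, the imprinted antisense RNA of the Kcnq1 domain, had 59.1 to 119 with a median of 87.5 and a summit 79 bp upstream. These 3 starts had means of 142, 131 and 88.8, above the median of 80.1 of coding starts open in all 7, and Neat1 fell to 72.1, under that median, when the summit had to lie in the window.

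The X inactivation centre held both open and closed starts. Jpx, an activator of Xist, had 48.5 to 90.1 with a median of 67.9 and a summit 47 bp upstream, inside the CpG-rich promoter printed above. Ftx, a second activator, had 82.7 in HPC7-1 and 63.6 in HPC7-2 and 15.8 to 24.3 in the other 5 libraries. In those first libraries the strongest peak had its summit 1320 and 1324 bp downstream of the start, and in the other 5 it had its summit 97 to 153 bp downstream. The HPC7-1 peak, 3386 bp wide, also covered the place of the weaker peaks of those 5 libraries, while the HPC7-2 peak lay apart from those peaks, so the values come from different summits. Xist itself, the RNA that coats the inactive X, had a peak in 2 libraries with a highest fold enrichment of 3.64, and Tsix, its antisense RNA, had none.

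Lncpint, an RNA induced by p53, had 20.2 to 37.6 with a median of 30.6, and Pvt1, the neighbour of Myc, had 12.4 to 25.4 with a median of 22.3. Both were open in all 7 libraries with summits 75 bp downstream and 57 bp upstream of the start. Meg3 and Mirg of the imprinted Dlk1-Dio3 domain, the imprinted H19 and Airn, and Miat had no peak in any library. The imprinted starts of the list were thus open at Kcnq1ot1 and without a peak at the other 4.

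Genes listed as small RNA hosts were open in all 7 libraries at 7 of 11 isolated starts, with a median fold enrichment of 45.2 among these 7. Mir17hg, the precursor of the miR-17-92 cluster, had 91.7 to 131 with a median of 105, from a CpG-poor annotated start whose peak had its summit 2063 bp upstream. Snhg6, a snoRNA host, had 78.7 to 127 with a median of 102 and a summit 60 bp upstream in a CpG-rich promoter. Epb41l4aos (37.7 to 71.5), Snhg12 (33.9 to 64.3) and Snhg20 (25.3 to 49.9) followed. The mean of Snhg20 fell from 37.7 to 7.13 with windows of 250 bp on either side.

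Mir155hg, the precursor of miR-155 of lymphoid and myeloid cells, had 13.1 to 22 with a median of 18.2. Mirt1, listed here by its symbol, is named for myocardial infarction and is not a small RNA host. Without it, 6 of 10 listed starts were open in all 7 libraries, with a median of 51.4. Mirt1 had 2.97 to 7.44 with a median of 5.97, at the CpG-poor summit printed above. Of the hosts of neuronal microRNAs, Mir124a-1hg and Mir124-2hg had no peak and Mir9-3hg had one in 1 library at 2.01. Mir670hg had none. Mir124a-1hg and Mir9-3hg are CpG-rich, so these 2 starts were closed or nearly so in spite of their CpG content.

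Of RNAs listed for blood and immune cells, 7 of 11 isolated starts were open in all 7 libraries. The list holds Bvht, known from cardiac mesoderm, and Lncenc1, known from embryonic stem cells, and without these it had 5 of 9. Gm26917 is one of them and lies under the chromosome 17 peak that it shares with Gm42418 and AY036118. Lockd, which lies 8.58 kb from the start of the cell cycle inhibitor gene Cdkn1b, had 116 to 178 with a median of 153 under a peak shared with Gm44238. Trp53cor1, also called lincRNA-p21 and 11.8 kb from Cdkn1a, had 56.8 to 105 with a median of 85.6 and a summit 78 bp downstream. Ptgs2os2, an RNA near the cyclooxygenase gene Ptgs2, had 36.8 to 73.3 with a median of 55.9.

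AU020206 (45.1 to 79.7), Lncenc1 (27.2 to 42.1) and Bvht (18.3 to 31.7) were also open in all 7. The strongest summit at Bvht lay 1388 bp upstream of the start, and its mean of 26.9 became 14.8 with windows of 500 bp on either side and 12.7 with the summit required in the window. Gm16364 had a peak in 6 libraries with a highest value of 6.70. Ifngas1, the RNA next to the interferon gamma gene, Gm2682 and Gm14005 had none. Every value of Gm16364 was below every value of the 7 open in all libraries.

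RNAs listed for other tissues were open in all 7 libraries at 2 of 7 isolated starts. Dnm3os, the antisense precursor of miR-199a and miR-214, had 15.3 to 29.7 with a median of 21.3. Carmn, the precursor of miR-143 and miR-145, had 7.51 to 17.5 with a median of 10.7, from a peak with its strongest summit 1012 bp upstream. No peak was left at Carmn with windows of 500 bp on either side, and its mean fell from 11.5 to 4.81 with the summit required in the window. Hotair, Halr1, Dlx1as, Dlx6os1 and Rmst, RNAs of developmental gene loci and of neurons, had no peak in any library. Over the 4 lists, 23 of 43 isolated starts were open in all 7 libraries, beside 13.3% of all 6806. These lists are made of well-studied genes and were drawn up with earlier results of these data known, and no test was made on them.

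How a gene was named went with openness. The 301 genes with a symbol other than a Gm number, a Rik clone or a sequenced clone name had a peak in 26.2 ± 2.74%, and 67 of them were open in all 7. The 4890 genes with a Gm number had one in 16.1 ± 1.96%. Single-exon genes, 277 of them, had a peak in 22.1 ± 2.56% and genes with 4 or more exons in 13.4 ± 1.70%. These groupings were made after the values were seen and were not tested.

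Peaks sat less tightly on lncRNA starts than on coding starts. Of isolated starts with a peak, 37.8 ± 0.874% had the nearest summit within 200 bp, against 70.5 ± 1.02% of coding starts and 17.9 ± 0.355% of the centres of tiled windows. The difference from coding starts was −32.7 percentage points (−18.2 with windows of 250 bp on either side), in 7 of 7 libraries (exact sign-flip permutation, p = 0.0156, adjusted p = 0.0156). A further 12 ± 1.30% of isolated starts with a peak had their nearest summit beyond 1 kb, against 5.58 ± 0.613% of coding starts. Of summits inside the window, 55 ± 0.555% lay upstream of isolated starts and 50.6 ± 1.53% upstream of coding starts.

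CpG-rich isolated starts had the tighter placement. Among summits inside the window, the median distance between start and nearest summit was 104 ± 5.99 bp at CpG-rich isolated starts, 310 ± 6.84 bp at CpG-poor ones and 96.0 ± 3.16 bp at coding starts. Starts whose nearest summit lay beyond 1 kb, 8.86 ± 1.52% of CpG-rich and 12.4 ± 1.39% of CpG-poor isolated starts with a peak, are not in these medians. In CpG-rich isolated starts 29.8% of summits fell in the 100 bp just before the start, and in CpG-poor ones 14.7%. Farther than 200 bp from CpG-poor starts, each 100 bp bin held 2.69% to 5.12% of summits on the upstream side and 3.76% to 4.14% on the downstream side.

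**Figure D5:**
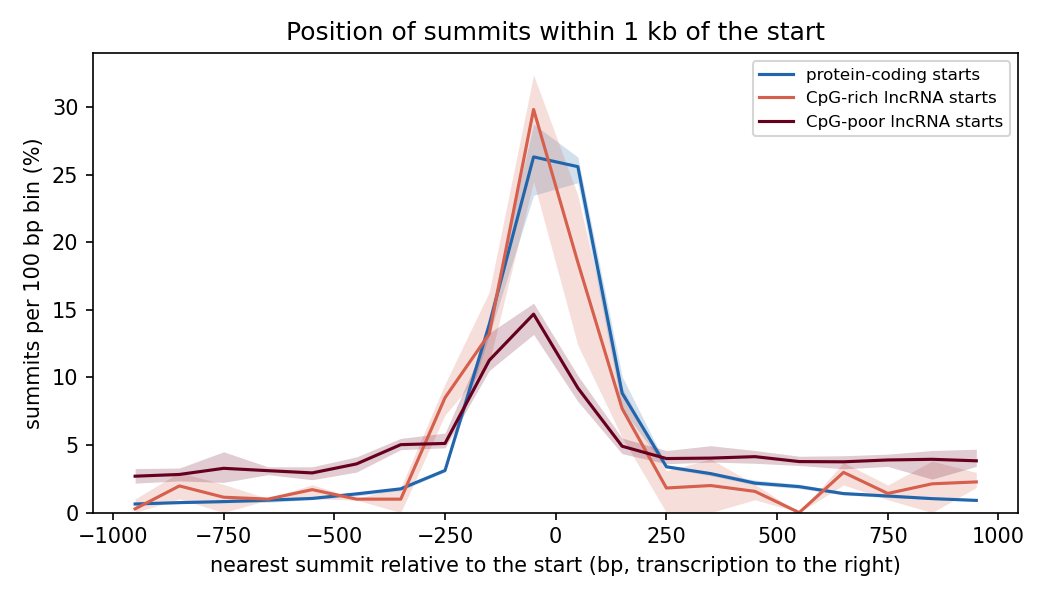
Position of the nearest summit relative to the start (bp, transcription to the right) as a share of summits per 100 bp bin (%), mean over 7 libraries with the range as a band, for protein-coding, CpG-rich lncRNA and CpG-poor lncRNA starts. CpG-rich lncRNA starts reach 29.8% in the bin just upstream of the start, and CpG-poor ones 14.7%.

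Motifs in the sequence under the summits were counted by CpG class, as a description without a test. GGGCGGG and CCGGAAG themselves contain CG, so their shares partly follow from how the classes were defined, and the closed tile centres were not matched for base composition. Motifs were searched in 100 bases on either side of the strongest summit of starts open in all 7 libraries, on both strands, at distinct summits within 1 kb of the start. At CpG-rich isolated starts (89 summits), 43.8% held GGGCGGG of SP and KLF factors, 14.6% CCGGAAG of ETS factors and 12.4% CCAATCA of NF-Y. At CpG-rich coding starts (7220 summits) the shares were 46.6%, 18.0% and 9.93%. In centres of every 10th tiled window, where no library had a peak, they were 0.653%, 0.498% and 2.57%.

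At CpG-poor isolated starts (642 summits) other letters were frequent. The core of the CTCF motif was found at 11.2%, GAGGAAGT of PU.1 at 9.81%, TGTGGTT of RUNX at 12%, TGAGTCA of AP-1 at 11.1% and CAGCTG, an E-box that reads the same on both strands, at 21.5%. The same 5 motifs were found at 8.76%, 8.11%, 14.1%, 10.5% and 15.5% of summits in tiled windows open in all 7, at 1.51%, 1.77%, 1.80%, 1.47% and 9.02% of summits at CpG-rich coding starts, and at 0.0964%, 1.18%, 4.59%, 3.06% and 6.64% of closed tile centres. AGATAAG of GATA factors was at 5.61% of CpG-poor isolated summits, 7.29% of open tiles and 2.92% of closed ones. GGGCGGG was at 5.92% of the CpG-poor isolated summits, CCGGAAG at 3.74% and CCAATCA at 4.52%. In open tiles these 3 were at 3.37%, 1.56% and 2.55%, and at CpG-poor coding starts at 24.4%, 8.71% and 7%. At CpG-poor coding starts (2273 summits) the CTCF core, PU.1 and RUNX letters were found at 3.83%, 5.32% and 6.07%. With only CpG-poor summits within 200 bp of the start counted (254 summits), the shares of the CTCF core, PU.1 and RUNX letters were 9.84%, 9.84% and 9.45%, and where the summit lay farther from the start (391 summits, of which 3 are also the near summit of another start) they were 12%, 9.97% and 13.6%. CCGGAAG was at 5.91% of the near summits and 2.56% of the farther ones, and CCAATCA at 7.87% and 2.30%.

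At the 89 CpG-rich isolated summits the CTCF core was found at 5.62%, PU.1 letters at 1.12%, RUNX and AP-1 letters at 4.49% each, CAGCTG at 6.74% and AGATAAG at 1.12%. Further letters were also searched. GCGCATGC of NRF1 was at 2.25% of CpG-rich and 0.467% of CpG-poor isolated summits and 0.163% of closed tile centres, TGACGTCA of CRE at 3.37%, 0% and 0.0850%, and AAGATGGC of YY1 at 3.37%, 0.623% and 1.91%. TATAAAA of the TATA box was at 4.49%, 2.65% and 8.14%. At the CpG-rich summits the shares of these last letters rest on 2 to 4 matches.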

How the data were processed

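Bulk ATAC-seq libraries of HPC7 cells (n = 7, HPC7-1, -2 and -4 to -8) were used, 1 peak list each. According to the labels and the methods of the study, the authors aligned reads to mm10 with BWA and called peaks in each library on its own with MACS2. Versions were not given in the sources used here. The deposited lists give fold enrichment as a ratio of summit signal to background, −log10 p-values and q-values from MACS2 and a display score that was not used. They hold no read counts. The study's own sequencing totals were not used here, list length (84593 to 132852 peaks) stood in for depth, and intervals that need counts are not given. Peak names begin with VD in HPC7-1, -2 and -4 and with EtOH in the other 4 libraries. These prefixes are explained neither by the labels nor by the paper and its library statistics as read here, and they served only for values within each prefix.

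Starts were the 5′ ends of GENCODE M21 genes on chromosomes 1 to 19, X and Y. A peak counted when it overlapped the window by 1 bp, and the strongest peak gave the value, 0 where there was none. Only 1 group exists, so libraries were the replicates. Shares were computed per library and compared between sets of windows by exact two-sided sign-flip permutation over the 128 patterns of 7 libraries, with Benjamini-Hochberg adjustment over 10 tests. The libraries share 1 genome and its windows, so these p-values speak of the spread between cultures, not of a sampling of genes. Repetition was measured with 32-base words of GRCm38, of which a k-mer count was tested on simulated sequence, and window overlaps were checked against bedtools 2.31.1.

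Named genes were the 12 isolated starts with the highest mean fold enrichment among those with a peak in all 7 libraries and under 50% repeated at 75 bases on either side of the strongest summit, the 3 highest antisense starts, every listed gene, the 3 strongest single-library starts and genes in counts of 5 or fewer. Lists of nuclear, small RNA host, blood and other-tissue RNAs were used. The members, lists and tests were chosen with earlier results of these data known. Alternatives changed the window, the overlap, the distance, the q threshold, the list length, the comparators, repeats and chromosomes, and left out each library.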

Additional observations from a re-analysis of the deposited data

How the results depend on the processing

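Of 215 alternative values for the 10 comparisons and the count of starts open in all 7 libraries, 213 were judged the same. For a comparison this meant the same direction and, where tested, the same side of the threshold. For the count, which has neither, values from 691 to 962 were judged the same. The other 2 alternative values belong to the count of isolated lncRNA starts open in all 7, which was 902 as reported. It was 580 with windows of 250 bp on either side and 569 when starts had to be more than 20 kb from coding starts, where fewer starts were counted. Requiring the summit in the window gave 740. With every list cut to 84593 peaks the count was 861, the difference from coding starts −37.7 percentage points and that from tiled windows 9.15. Values that moved by over 1.5 times without a change of call were lincRNA minus antisense (−4.34 and −3.12 with 500 and 250 bp), CpG-poor starts against coding starts (−22.1 with the stricter CpG definition), CpG-rich starts against coding starts (−22.0 there), the distance classes (12.5 with 250 bp) and summits within 200 bp (−18.2 with 250 bp). Leaving out a library in turn gave p-values of 0.0312, the smallest that 6 libraries allow, with every difference of the same sign. An alternative without chromosome Y was chosen after seeing the data. It could not change the count of 902, as no isolated start there had a peak, and that value is among the 213. The comparison of distance classes was not run with the 20 kb limit, which empties the nearest class. The comparison with starts within 5 kb was not run without repeated windows, since repetition was not measured there. In the comparison with tiled windows that alternative removed repeated isolated starts but no tiles, and gave 12.3 percentage points. Of 350 alternative values for 35 named starts, 19 moved by more than 1 SD, none of them by leaving out a library. With the summit required in the window, Gm44955, Mir17hg, Gm26917 and AY036118 had no value, Gm42418 had a mean of 194, Malat1 105 and Neat1 72.1. None of 10 measures of the isolated starts tested for this, and none of the 35 named starts, had a library apart from the others by Dixon's criterion for 7 values. The criterion looks for a single library apart, so 2 libraries apart together can escape it. This was so at Ftx, with 82.7 in HPC7-1 and 63.6 in HPC7-2. The lists hold no counts per start, so a start without a peak is one where none was detectable in these lists.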
